A study of Homo sapiens with 3 samples.

Results

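The 42 genes described here are autism and neurodevelopmental disorder genes, a fixed list of names out of 20037 protein-coding genes on the main human chromosomes. By the known function of their products they were divided into 16 chromatin regulators, 10 transcription factors and cofactors, 8 synaptic and adhesion genes and 8 genes of signalling, ubiquitin and the cytoskeleton. For each gene, open chromatin was recorded at the outer ends of the RefSeq gene, inside it and in the surrounding 50 kb.

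The chromatin came from neurons made from KOLF2.1J, a human induced pluripotent stem cell line that carries hNGN2, a gene for a neurogenic transcription factor, and was taken after 14 days of neuronal differentiation. Open chromatin was measured by ATAC-seq, in which a transposase inserts sequencing adapters where DNA is not packed. The wider study looked for regulatory elements of the tau gene MAPT. It deposited for these cells a single list pooled from 3 biological replicates, with no treated or control group and no value per replicate, so that no spread between replicates can be given and no difference below was tested.

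The list held 145092 summits in 65234 separate regions, 486 of which lay at, in or within 50 kb of the 42 genes. Each region is given by the authors' fold enrichment, the ratio of the signal at its summit to the local background, and by the number of sequencing tags at the summit in the 3 pooled samples, which was worked back from that ratio and its p value and ran from 58 to 3783. Where an interval follows a tag number it is an exact 95% Poisson interval, and it covers counting error only. A region lay within 1 kb of an outer end in 8 of 10 marker genes of neurons, 1 of 6 of pluripotent cells (LIN28A, fold enrichment 3.04), 3 of 7 of astrocytes and oligodendrocytes and 0 of 7 of non-neural tissues. Counting listed starts inside the gene as well, the marker counts were 10 of 10, 2 of 6, 4 of 7 and 0 of 7, with RBFOX3 and TUBB3 added for neurons, DPPA4 (5.41) for pluripotent cells and MBP (3.58) for oligodendrocytes.

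Genes that are mutated in autism and developmental delay fall largely into a group that acts in the nucleus, as chromatin remodellers, histone-modifying enzymes and transcription factors, and a group that acts at the synapse and the axon, as scaffolds, adhesion proteins and membrane anchors. The chromatin regulators are expressed in most cells, and housekeeping genes of this kind usually start in open CpG islands. Genes of the synapse are often very long and can start from several promoters, of which a given cell type uses some.

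The starts on which the results turn are printed first. Each is the window from 250 bases before to 50 bases after a start listed by RefSeq (GRCh38.p14), read in the direction of the gene. Capitals mark short words that were searched on both strands. They are the GC box, GGGCGG, which is known as a site of SP factors, then the core word of ETS factors, CCGGAAG, then CCAAT, the box bound by the factor NF-Y, and lastly the E-box of helix-loop-helix factors with the letters CAGCTG. Such a match is a description of the letters and not a bound site. The 3 windows shown first are open starts of the genes with the strongest end in 3 of the roles: CHD8 at chr14:21437226-21437525, minus strand, KATNAL2 at chr18:46946547-46946846, plus strand, and WAC at chr10:28532529-28532828, plus strand. For CHD8 and KATNAL2 these starts lie inside the gene, 18.8 kb and 29.2 kb from its outermost 5′ end.
CHD8: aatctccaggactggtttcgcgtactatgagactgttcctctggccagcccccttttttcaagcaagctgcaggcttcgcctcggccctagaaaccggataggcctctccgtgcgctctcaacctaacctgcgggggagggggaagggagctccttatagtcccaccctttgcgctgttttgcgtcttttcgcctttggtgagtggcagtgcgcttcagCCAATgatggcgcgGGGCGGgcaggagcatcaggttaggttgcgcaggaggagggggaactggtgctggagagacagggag
KATNAL2: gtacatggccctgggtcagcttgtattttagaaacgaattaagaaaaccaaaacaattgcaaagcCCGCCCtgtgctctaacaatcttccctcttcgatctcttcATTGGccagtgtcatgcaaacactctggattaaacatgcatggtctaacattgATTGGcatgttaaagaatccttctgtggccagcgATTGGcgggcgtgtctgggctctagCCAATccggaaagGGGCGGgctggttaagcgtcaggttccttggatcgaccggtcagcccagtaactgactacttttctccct
WAC: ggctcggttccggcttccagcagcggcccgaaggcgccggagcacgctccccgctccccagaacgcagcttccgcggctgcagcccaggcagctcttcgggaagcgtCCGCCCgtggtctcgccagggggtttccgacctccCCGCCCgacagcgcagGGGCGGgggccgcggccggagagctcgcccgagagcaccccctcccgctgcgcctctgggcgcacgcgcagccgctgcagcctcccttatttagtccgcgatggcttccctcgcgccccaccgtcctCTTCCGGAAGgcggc
The WAC window was 74.7% GC with a CpG content close to the expected value, 39 in all, and its summit lay 7 bases before the start. The KATNAL2 window, at 49.0% GC, held CCAAT 4 times and the GC box 2 times. The next 5 windows are inner starts that were open in the genes with no region at an outer end: ARID1B at chr6:156777128-156777427, plus strand, DYRK1A at chr21:37366523-37366822, plus strand, MEF2C at chr5:88883135-88883434, minus strand, TBL1XR1 at chr3:177197433-177197732, minus strand, and TCF4 at chr18:55321792-55322091, minus strand.
ARID1B: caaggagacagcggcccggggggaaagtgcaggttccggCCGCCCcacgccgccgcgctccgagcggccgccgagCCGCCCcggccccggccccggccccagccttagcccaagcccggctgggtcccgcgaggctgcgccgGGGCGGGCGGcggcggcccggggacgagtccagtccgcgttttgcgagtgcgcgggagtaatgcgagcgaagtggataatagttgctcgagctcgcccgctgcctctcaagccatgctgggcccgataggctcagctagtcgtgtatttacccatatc
DYRK1A: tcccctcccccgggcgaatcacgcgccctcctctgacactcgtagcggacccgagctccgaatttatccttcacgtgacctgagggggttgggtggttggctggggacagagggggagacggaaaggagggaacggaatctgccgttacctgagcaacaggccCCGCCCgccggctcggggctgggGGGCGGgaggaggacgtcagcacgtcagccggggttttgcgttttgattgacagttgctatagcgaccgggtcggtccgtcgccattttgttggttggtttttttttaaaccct
MEF2C inner start: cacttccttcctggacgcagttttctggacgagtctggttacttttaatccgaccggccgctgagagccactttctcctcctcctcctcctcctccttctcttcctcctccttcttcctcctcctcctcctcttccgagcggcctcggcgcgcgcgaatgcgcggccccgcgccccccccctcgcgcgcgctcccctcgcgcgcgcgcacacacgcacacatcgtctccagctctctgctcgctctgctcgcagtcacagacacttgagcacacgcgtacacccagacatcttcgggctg
TBL1XR1: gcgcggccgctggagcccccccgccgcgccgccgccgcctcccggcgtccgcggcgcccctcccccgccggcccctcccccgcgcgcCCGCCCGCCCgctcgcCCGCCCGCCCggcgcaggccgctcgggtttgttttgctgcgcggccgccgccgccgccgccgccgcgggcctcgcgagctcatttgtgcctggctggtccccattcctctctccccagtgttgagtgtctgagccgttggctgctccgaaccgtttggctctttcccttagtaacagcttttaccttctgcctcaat
TCF4: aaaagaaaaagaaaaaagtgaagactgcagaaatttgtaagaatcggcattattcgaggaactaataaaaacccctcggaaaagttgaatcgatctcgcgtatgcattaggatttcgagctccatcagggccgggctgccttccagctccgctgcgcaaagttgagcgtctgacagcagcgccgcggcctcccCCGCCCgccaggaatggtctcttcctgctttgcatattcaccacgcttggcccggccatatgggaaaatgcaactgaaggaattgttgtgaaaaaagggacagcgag
In all 5 the summit fell inside the printed window, between 11 bases (MEF2C) and 114 bases (DYRK1A) before the start. The last 2 windows had no region within 1 kb: the listed start of SHANK3 at chr22:50672573-50672872, plus strand, chosen after its values were seen, and the outermost start of MEF2C at chr5:88904056-88904355, minus strand.
SHANK3: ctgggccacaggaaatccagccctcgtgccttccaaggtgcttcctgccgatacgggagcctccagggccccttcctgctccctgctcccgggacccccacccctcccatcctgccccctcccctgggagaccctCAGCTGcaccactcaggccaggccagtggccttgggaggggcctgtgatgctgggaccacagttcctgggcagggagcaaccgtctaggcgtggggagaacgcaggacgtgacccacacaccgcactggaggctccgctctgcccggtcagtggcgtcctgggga
MEF2C outermost start: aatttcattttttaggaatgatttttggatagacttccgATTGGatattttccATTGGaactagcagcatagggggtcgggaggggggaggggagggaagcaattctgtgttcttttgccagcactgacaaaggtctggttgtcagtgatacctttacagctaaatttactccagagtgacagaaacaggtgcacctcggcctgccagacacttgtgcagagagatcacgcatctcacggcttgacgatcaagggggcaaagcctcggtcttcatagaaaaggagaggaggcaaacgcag
The 2 MEF2C windows differed in composition, with 64.7% GC and 32 CpGs in the open one and 48.3% GC and 8 CpGs in the other. The SHANK3 window was 68.7% GC but held only 12 CpGs, 0.344 of the number expected from its base composition.

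Most of the 42 genes were open at an end. A region lay within 1 kb of an outer end in 37 of 42 genes (88.1%, 95% Wilson interval 75.0 to 94.8), beside 66.7% of all coding genes. The interval only describes the count and tests no difference, since genes of a fixed list are not replicates. Long genes were open more often, and coding genes within 25% of each member's length averaged 78.4%. By role the counts were 14 of 16 chromatin regulators, 8 of 10 transcription factors and cofactors, 8 of 8 synaptic and adhesion genes and 7 of 8 genes of signalling, ubiquitin and the cytoskeleton. The 5 genes without such a region were ARID1B, TBL1XR1, TCF4, MEF2C and DYRK1A. At the limit of the window, the regions just inside 1 kb belonged to TRIP12 (966 bp from the end), SHANK1 (924 bp) and SHANK3 (907 bp), and those just outside to DYRK1A (1086 bp), MEF2C (1138 bp) and ARID1B (1273 bp).

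Where RefSeq lists the start itself the count was higher. Of the 39 members in the table of starts (SHANK1, SHANK2 and GIGYF1 were not in it), 38 had a region within 1 kb of at least 1 listed start, beside 71.2% of coding genes with a listed start and an average of 85.5% among those of similar length. All 5 genes with no open outer end were open at a start further in. The exception was SHANK3, a scaffold of the postsynaptic density. Its region closest to the listed start lay 2.08 kb inside the gene, with a fold enrichment of 6.56 and 443 tags (403 to 486), and the region that counted at its outer end was at the far end of the gene, with 2.80 and 114 tags (94 to 137).

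**Figure D1:**
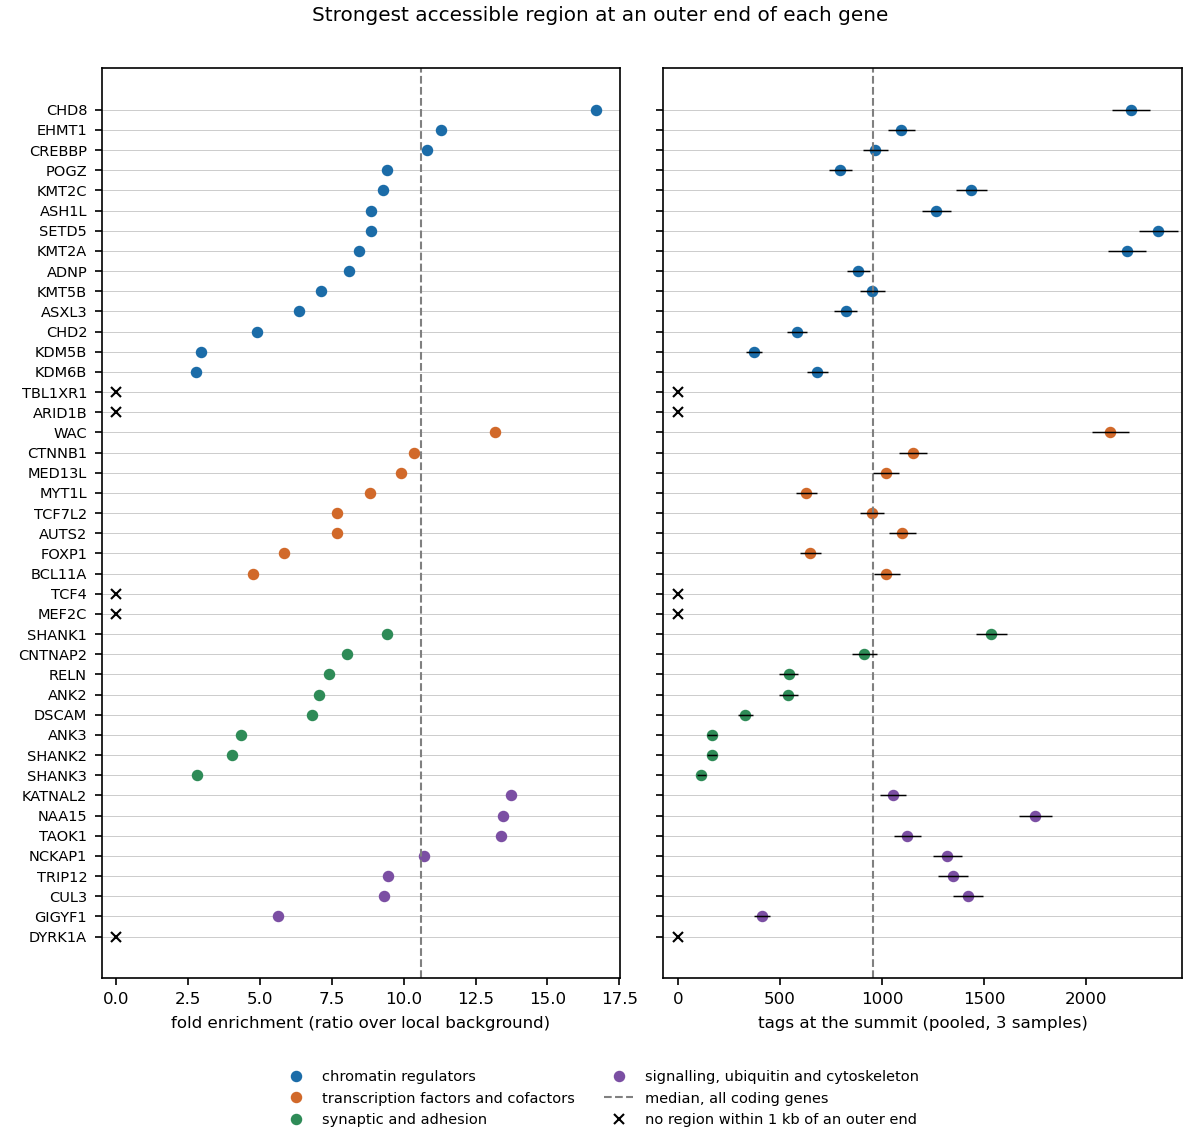
The left axis plots the fold enrichment, a ratio over local background, and the right axis the pooled tags at the summit, of the strongest region within 1 kb of an outer end of each gene, with 95% counting intervals as bars on the right. The synaptic and adhesion genes all lie to the left of the dashed median of all coding genes for fold enrichment (10.6), and crosses at 0 mark the 5 genes with no such region.

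Among chromatin regulators the median fold enrichment at the strongest end was 8.64, with a range from 2.76 to 16.7. CHD8, a chromodomain helicase and a gene often mutated in autism, had the strongest end of the 42, with a fold enrichment of 16.7 and 2217 tags (2126 to 2311). That placed it at percentile 95.4 among coding genes of similar length, where 5.07% of coding genes reached percentile 95. CHD8 was also the one member open at both outer ends, beside 5.36% of coding genes. Its ends are shared: the stronger region is also at an end of the non-coding gene LOC124903283, and the other, with a fold enrichment of 14.1, at an end of SUPT16H. Neither outer end is the listed start of CHD8, which lies 18.8 kb from the outermost 5′ end, and the open ends include the far end of the gene. The listed start of CHD8 had another region, with a fold enrichment of 16.6 and 1339 tags, so 3 strong regions lay along a gene of 70.9 kb.

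The histone methyltransferases followed at middle values. EHMT1 had a fold enrichment of 11.3 with 1092 tags, KMT2C 9.29 with 1437, ASH1L 8.87 with 1265, and KMT5B 7.13 with 951. SETD5, a SET-domain protein, had the most tags of any member's end, 2351, and KMT2A, a methyltransferase, came next after CHD8, with 2198. Their fold enrichments were only 8.85 and 8.43, over local backgrounds of 265 and 260 tags. SETD5 stood at percentile 95.9 for tags but 33.0 for fold enrichment, and the background shares above percentile 95 and below 5 were 5.05% and 5.10% for tags. The acetyltransferase CREBBP had 10.8 and 965 tags, the zinc finger proteins POGZ and ADNP 9.42 and 8.10, and ASXL3, of a polycomb-related family, 6.36. CHD2, a second chromodomain helicase, had 4.90 and 582 tags at its start, and a stronger region 3.99 kb inside, at the microRNA gene MIR3175, with 13.7 and 1731 tags.

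Both histone demethylases were at the bottom of the role. KDM6B had a fold enrichment of 2.76 with 681 tags (631 to 734) and KDM5B 2.94 with 372 tags (335 to 412), percentiles 0.883 and 1.16, and with SHANK3 they were the 3 members at or under percentile 5, beside 5.08% of coding genes. A stronger region lay close by in both. KDM6B had a region of 6.87 and 1754 tags 1.39 kb inside, and the local background at its end was 246 tags. KDM5B had a region of 10.8 and 1367 tags 2.46 kb outside its end, at ends of the non-coding gene PCAT6 and the predicted coding gene LOC124904583.

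Transcription factors and cofactors had a median of 8.27 at the end. WAC, an adaptor in histone ubiquitination, was highest with 13.2 and 2116 tags (2027 to 2208), at an end shared with the antisense gene WAC-AS1. CTNNB1, which encodes β-catenin, had 10.4, the Mediator gene MED13L 9.89, the neuronal zinc finger gene MYT1L 8.84, and TCF7L2, a factor of the Wnt pathway, and AUTS2, a polycomb-associated gene, 7.70 and 7.69. FOXP1, a forkhead factor, had 5.83. BCL11A, a zinc finger repressor, had a fold enrichment of 4.75 but 1021 tags, over a background of 214, so that by tags it was in the middle of genes of its length (percentile 50.3) and by fold enrichment low (9.30).

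The synaptic and adhesion genes had the lowest median of the 4 roles, 6.93, and 0 of 8 reached percentile 50 among genes of similar length, beside 49.9% of coding genes above it. SHANK1 had the highest, 9.43 and 1535 tags (1459 to 1614), at an end shared with SYT3 and C19orf81. CNTNAP2, a contactin-associated adhesion protein, had 8.04 and 913 tags, and RELN, the secreted protein that guides neuronal layering, 7.39 and 542. The cytoskeletal anchors ANK2 and ANK3 had 7.05 and 4.35, the adhesion receptor DSCAM 6.82, and SHANK2 4.03. In tags the separation was wider: ANK3 (166 tags, 142 to 193), SHANK2 (165, 141 to 192) and SHANK3 (114, 94 to 137) were the only members at or under percentile 5 for tags, and their intervals do not reach the 330 tags (295 to 368) of DSCAM, the next gene. Not all of these ends are starts. That of SHANK3 is its far end. In SHANK1 and SHANK2 the open end was the one with the lower coordinate. Neither has a listed start, so whether that end is a start was not determined. At the strongest listed start the median fold enrichment was 8.04 over the 5 synaptic and adhesion genes open there. It was 8.64 in chromatin regulators, 9.33 in transcription factors and cofactors and 11.4 in the signalling group.

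Genes of signalling, ubiquitin and the cytoskeleton had the highest median, 10.7. KATNAL2, which resembles the microtubule-severing enzyme katanin, had 13.7 with 1052 tags, NAA15, a subunit of an N-terminal acetyltransferase, 13.4 with 1750, and the kinase gene TAOK1 13.4 with 1121. NCKAP1, of the actin-regulating WAVE complex, had 10.7, and the ubiquitin ligase genes TRIP12 and CUL3 had 9.46 and 9.31. GIGYF1, an adaptor in translational repression, was lowest with 5.62 and 410 tags.

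Read over all 37 open ends, fold enrichment and tags gave different pictures. The median fold enrichment was 8.43, under the 10.6 of all coding genes, and 12 of 37 members lay above percentile 50 of their length class. The median tag number was 965, against 958 for all coding genes, and 21 of 37 lay above percentile 50, beside 50.1% of coding genes. The local background that divides the signal was 113 tags in the median at members' ends. It was 74.1 tags over all regions of the list at an end of any gene, non-coding genes included. Those regions had a median of 663 tags and are not limited to the strongest ends of coding genes, so the 2 backgrounds are from unlike sets. The part of the background in the lower fold enrichment was not tested. The strongest end region was shared with an end of some other gene in 14 members, and with that of another coding gene in 4 (ASH1L, KDM6B, SHANK1 and TRIP12). The weaker end region of CHD8, at SUPT16H, makes 5 such members, in which the signal of the 2 genes cannot be told apart. How often coding genes share an end region in this way was not counted, so whether these numbers are usual is not known.

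Several long genes opened at more than 1 start. The 39 members in the table had 100 listed starts, of which 78 were open, although neighbouring starts often fall on 1 region, and the 78 rested on 60 regions. Of these genes 20 had several listed starts, and 9 were open at 2 or more separate regions, beside 5.02% of coding genes with a listed start. The number of starts RefSeq lists differs between genes and was not matched in that share. In 7 of the 9 the region with the highest fold enrichment lay away from the outermost start. In FOXP1, TCF7L2 and KATNAL2, which are among these 7, the outermost start nevertheless had the most tags.

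ANK2 (chr4:112705622-113383736, plus strand) had 10 listed starts, and 9 were open on 7 regions. The outermost had a fold enrichment of 7.05 and 541 tags (496 to 589). The start 112.5 kb further in had 13.1 and 910 tags (852 to 971), the one 155.4 kb in was weaker than the outermost, with 6.83 and 240 tags (211 to 272), and those 343.8 and 411.4 kb in had 11.2 and 10.6. The start 587.4 kb in had the most tags, 1198 (1131 to 1268), and only the start at 630.3 kb was closed. ANK3 (chr10:60026298-60733528, minus strand) was open at all 4 of its listed starts, with 4.35 and 166 tags (142 to 193) at the outermost start, 9.21 and 639 tags (590 to 691) at 160.6 kb, 3.79 at 343.7 kb and 10.4 and 481 tags (439 to 526) at 592.8 kb. The highest fold enrichment was at the 112.5 kb start of ANK2 and the innermost start of ANK3, and the most tags at the innermost open start of ANK2 and the 160.6 kb start of ANK3. In both genes some inner starts were stronger than the outermost by either measure.

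TCF4 (chr18:55222185-55635957, minus strand), an E protein of the helix-loop-helix class and the gene of Pitt-Hopkins syndrome, was closed at its outermost listed start, with the nearest region 46.1 kb away. It was open at 7 of 10 starts on 5 regions. The 2 strongest, with 9.68 and 889 tags (832 to 949) at 46.1 kb and 9.69 and 750 tags (697 to 806) at 314.1 kb, differed little in fold enrichment, and the other 3 had 3.74 to 4.05. MEF2C (chr5:88717117-88904105, minus strand), a MADS-box factor of neurons and muscle, was open at 2 of 7 starts, with 9.20 and 656 tags (607 to 708) at 20.9 kb and 7.47 and 319 tags (285 to 356) at 118.6 kb. Nearest to its outermost start was a weak region of 3.28 and 98 tags (80 to 119), 1138 bp outside the gene.

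FOXP1 was open at 5 of 6 starts, each with a region of its own, from 2.89 at 451.8 kb to 9.47 at 40.4 kb. By tags its outermost start was highest, with 647 (598 to 699) against 447 (407 to 490) at 40.4 kb. TCF7L2 had 7.70 at its outermost start and 8.65 at 176.4 kb, with tags of 949 (890 to 1011) and 817 (762 to 875), so the order of these 2 turned with the measure. KATNAL2 had 13.7 and 16.4 at its 2 regions with nearly equal tags, 1052 and 1032. BCL11A and MYT1L were the 2 genes of the 9 whose outermost region had the highest fold enrichment. MYT1L had 8.84 there and 4.97 at 6.59 kb.

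In ARID1B, DYRK1A and TBL1XR1 the open start was a short way in. DYRK1A (chr21:37365573-37526358, plus strand), a kinase gene of the Down syndrome region, had a region with 11.4 and 1975 tags (1889 to 2064), the fourth highest tag number of any region at a listed start of a member, and it covered the starts at 0.5, 1.2 and 1.98 kb. ARID1B (chr6:156776026-157210779, plus strand), a subunit of the BAF remodelling complex, had 5.44 and 733 tags (681 to 788) at the start 1.35 kb in. TBL1XR1 (chr3:177019344-177201800, minus strand), of the NCoR corepressor complex, had 9.04 and 802 tags (747 to 859) at 4.32 kb.

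**Figure D2:**
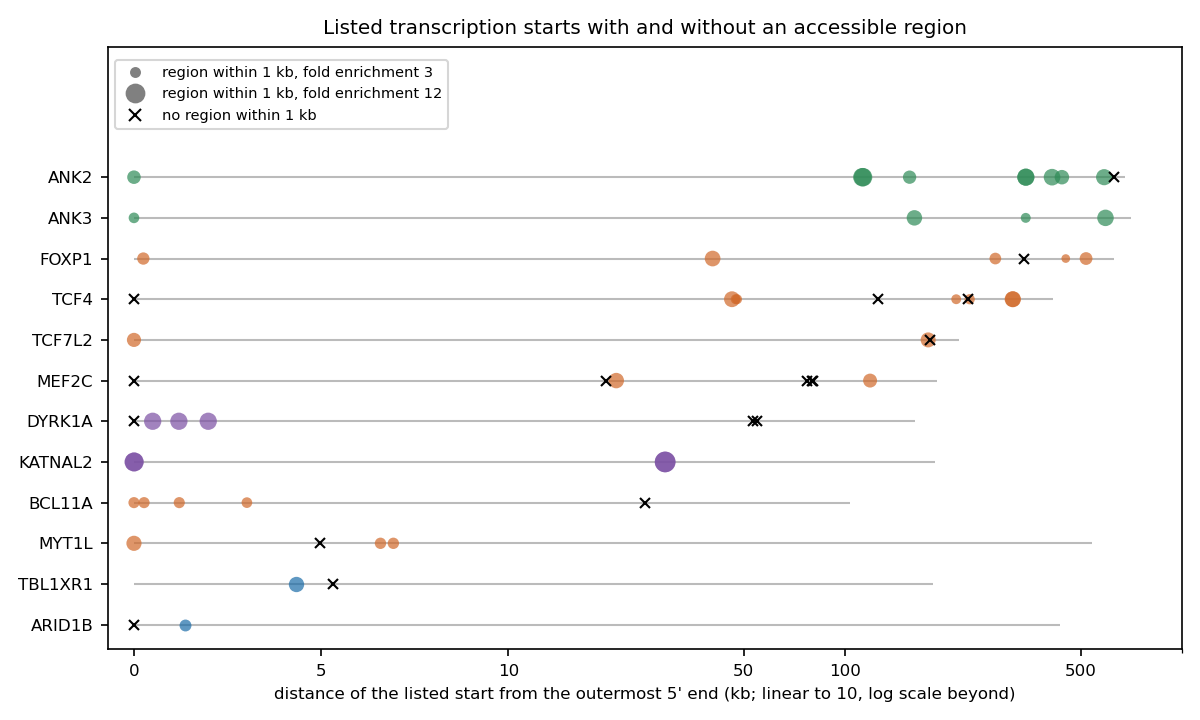
The horizontal axis is the distance of each listed start from the outermost 5′ end in kb, linear to 10 and logarithmic beyond, for 12 genes that had 2 or more open start regions or no open outer end. Circles are starts with a region within 1 kb, their area proportional to fold enrichment, crosses are starts without one, and grey lines span the gene. ANK2 and ANK3 have small circles at 0 and some larger ones beyond 100 kb.

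Inside the genes, 320 regions lay more than 1 kb from either end. Over 12.9 Mb of gene body this was 2.47 per 100 kb, beside 2.12 over all coding genes. Transcription factors and cofactors had 3.17 per 100 kb, chromatin regulators 2.44, synaptic and adhesion genes 2.17 and the signalling group 1.70. Medians over the genes of a role gave another order for the chromatin regulators (1.74), which included 2 of the 5 genes with none, while the transcription factors and cofactors stayed highest (3.47), the synaptic and adhesion genes had 2.84 and the signalling group 1.88. Within lengths of 25%, the median percentile was 82.0 for transcription factors and cofactors, 77.6 for synaptic and adhesion genes, 53.5 for chromatin regulators and 51.9 for the signalling group.

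Of the 42 genes, 27 lay above percentile 50, beside 32.9% of all coding genes. Most short genes have no region inside and tie, so the share for genes of 50 kb or more is the closer one: 23 of 38 such members, beside 53.1%. At or above percentile 95 were 5 members, AUTS2, KDM6B, SHANK1, ARID1B and TCF7L2, beside 4.1% of coding genes. All but KDM6B are 50 kb or longer, 4 of 38 such members, beside 5.15%. AUTS2 (chr7:69598475-70793506) had 46 regions inside where the median of 73 genes of its length was 20, more than any of them. They had fold enrichments from 2.36 to 11.0 with a median of 5.19. The 5′-most of 3 equal parts of the gene held 14 of them, the middle 9 and the 3′-most 23, and the longest stretch without a region ran for 116 kb.

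KDM6B (chr17:7834217-7854796) had 6 regions in 20.6 kb, where the median of genes of its length was 0, and its 32.3 per 100 kb was the highest of the 42. The strongest of the 6 was the region of 6.87 at 1.39 kb, and the other 5 had fold enrichments of 3.81 to 6.49 and 524 to 1180 tags. SHANK1 (chr19:50659255-50719802) had 5 where the median was 1, 8.54 per 100 kb, with fold enrichments of 2.57 to 8.47. GIGYF1, with 1 region in 14.7 kb, CTNNB1, with 2 in 40.9 kb, and TCF7L2 came next per 100 kb, with 7.85, 5.14 and 5.11, the first 2 on very few regions. TCF7L2 held 11 regions where the median was 4. ARID1B held 20 against 9. The one with the highest fold enrichment, 157 kb into the gene, had 13.7 and 769 tags. The open start of ARID1B had a lower fold enrichment, 5.44, but a similar tag number, 733 (681 to 788).

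At the other end, CREBBP, KDM5B, CUL3, NAA15 and WAC had no region inside, as had 59.1% of all coding genes. That share is not matched for length, and the median coding gene is 24.1 kb long. Among genes of similar length these members stood at percentiles from 6.14 to 14.4. CREBBP stood out for its length: 0 regions in 156 kb, where the median was 3 (percentile 6.14). ASH1L had 1 against 4 (percentile 9.68) and RELN 4 against 10 (10.2), the fewest of the 9 members of 500 kb or more. No member was at or under percentile 5, which 0.404% of coding genes were.

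**Figure D3:**
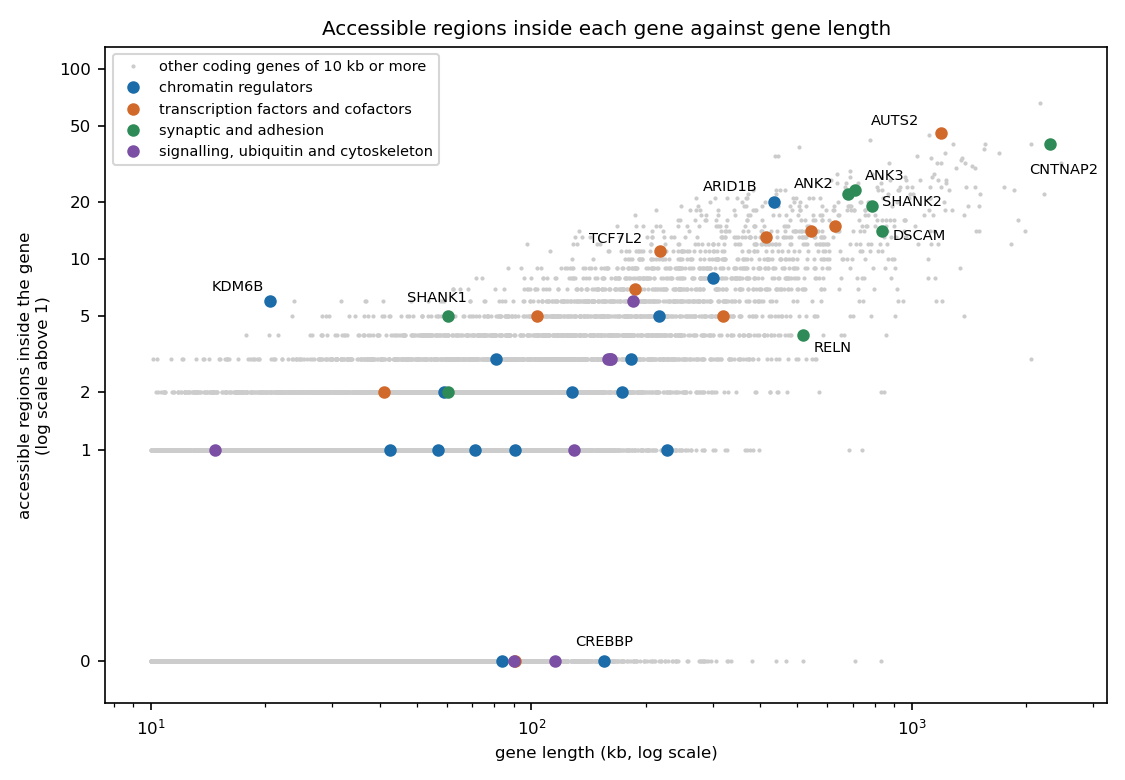
The vertical axis is the number of accessible regions inside a gene and the horizontal axis its length in kb, both on log scales, with 0 drawn below 1, coloured points for the 42 genes by role and grey points for other coding genes of 10 kb or more. AUTS2 with 46 regions, ARID1B with 20 and KDM6B with 6 lie along the upper edge for their length, RELN with 4 and CREBBP with 0 along the lower.

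The regions inside were mostly narrower and weaker than those at ends. Their median fold enrichment was 5.18 with 199 tags and a width of 847 bp, against 8.43, 965 tags and 1614 bp at members' ends. The median over all distal regions of the list was close, at 5.11 and 201 tags. Only 31 of the 320 (9.69%) were at a listed start, and those had a median of 8.09 and 525 tags, while the 289 others had 4.99 and 189 tags.

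Yet in 18 of 32 members with both kinds, the strongest region inside exceeded the strongest end in fold enrichment, beside 35.5% of coding genes with both. In genes of 100 kb or more this was 14 of 21, beside 45.4%. The median local background was 37.2 tags for members' regions inside and 113 at their ends. Its part in these counts was not tested, and no such count was made by tags. The strongest region inside any member was in DYRK1A, at chr21:37434913-37436223, 69.7 kb into the gene and 15.0 kb from the nearest listed start. It had a fold enrichment of 17.1 and 826 tags (771 to 884), above the 11.4 of the gene's open start, but with fewer tags over a lower background. CHD8 and KATNAL2 followed at their inner starts (16.6 and 16.4), then CHD2 and ARID1B with 13.7 each. SETD5 had 13.6 at 25.3 kb and FOXP1 13.1 at chr3:71109664-71111092, neither at a listed start. In SHANK2, CNTNAP2 and MED13L the strongest had 12.9, 12.4 and 11.2.

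Along the long genes the regions showed no common pattern. In the 10 members with 10 or more regions inside and a listed start, the 5′-most of 3 equal parts held a median of 30.6% of them, beside 30.0% in 391 coding genes of 200 kb or more chosen in the same way. FOXP1 was lowest, with 2 regions of 15 in that part and 11 in the 3′-most, and ANK3 highest, with 10 of 23. CNTNAP2, the longest member at 2304 kb, had 40 regions, 20 of them in the 3′-most part, and a stretch of 260 kb without any. DSCAM had 14 regions over 836 kb, of which none had a fold enrichment over 8.17.

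Distal regions, outside the gene, within 50 kb and not at an end of another gene, numbered 79, a median of 2 a gene, as over all coding genes. Chromatin regulators had a median of 2 and each other role 1.5, and the median percentile over the 42 was 59.0, with 22 of 42 above percentile 50, beside 51.3% of coding genes. Of the 42 genes 9 had none, beside 22.9% of coding genes. MEF2C had 7 (percentile 99.4), KDM5B and TAOK1 had 5 each (95.8 and 95.6), the 3 members at or above percentile 95 beside 5.48% of coding genes, and KDM6B, with 5, stood at 94.9.

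The 7 around MEF2C were of 2 kinds. On the 3′ side, 33.4 to 43.7 kb from the gene and among regions at ends of MEF2C-AS2, MIR9-2 and MIR9-2HG, 4 regions had 405 to 994 tags but fold enrichments of only 3.61 to 5.59, over local backgrounds of up to 271 tags. The other 3, one of them 8.15 kb from the 3′ end and 2 on the 5′ side, had 98 to 133 tags over the background of 29.2 tags. By tags the strongest signal around MEF2C thus lay nearer to the microRNA gene than to MEF2C, and which gene such regions act on cannot be read from this list. The 5 around KDM5B had 123 to 288 tags, and the 5 around TAOK1 307 to 895 tags with fold enrichments of 5.24 to 8.04. CHD2, KMT5B and SETD5 had 4 each.

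The strongest distal region near a member was 5.67 kb from NAA15, inside NDUFC1, with a fold enrichment of 16.1 and 1121 tags. KMT2A had one of 13.4 inside IFT46, ANK3 11.7, ANK2 10.9 and AUTS2 10.1. Of the 79 distal regions, 27 lay inside another coding gene, so their nearness to a member does not assign them to it.

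**Figure D4:**
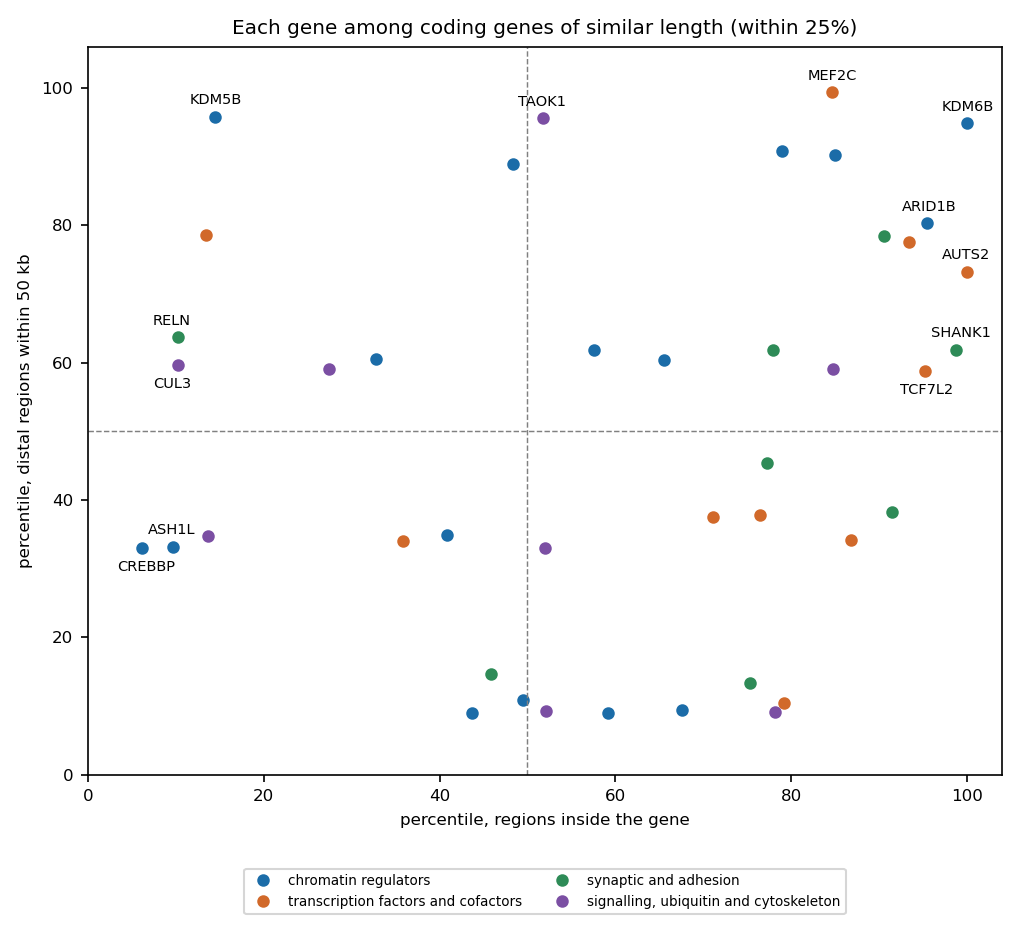
Each point is 1 of the 42 genes, coloured by role, placed by its percentile among coding genes within 25% of its length for regions inside the gene (horizontal axis) and distal regions within 50 kb (vertical axis), with dashed lines at percentile 50. KDM6B is high on both axes, MEF2C, KDM5B and TAOK1 on the vertical one, and CREBBP and ASH1L are low on the horizontal one.

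Start windows differed in composition with their state. The 78 open listed starts of members had a median GC content of 63.8% and a CpG ratio, observed over expected, of 0.798, against 43.8% and 0.278 for the 22 closed ones. The GC box was in 47 of 78 open windows and 1 of 22 closed windows, beside 56.3% of all 22199 listed starts of coding genes. The exceptions among closed starts were SHANK3, at 68.7% GC, and an inner start of TBL1XR1, which lay 1044 bp from the summit of the open start beside it. Several open starts were poor in CpG, the lowest at a ratio of 0. Starts of a gene can overlap, and transposase insertion and amplification depend on base composition, whose part in these counts was not tested.

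At the outermost listed start the 39 members had a median GC content of 68.7% and a CpG ratio of 0.838, beside 62.7% and 0.761 for other coding genes. Chromatin regulators and transcription factors and cofactors had CpG ratios of 0.866 and 0.951, and the 6 synaptic and adhesion genes with a listed start had 0.647. The GC box was in 25 of 39 windows (64.1%), beside 58.3% of other coding genes. The ETS word was in 2 of 39 (5.13%), beside 14.2%, the word of NRF1 in 0 of 39, beside 1.77%, and CCAAT in 9 of 39 (23.1%), beside 36.4%. The word of ZBTB33 was in 3 of 39, in ADNP, CUL3 and TAOK1, beside 0.652%. A word missing from these windows says only that its letters are not there.

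**Figure D5:**
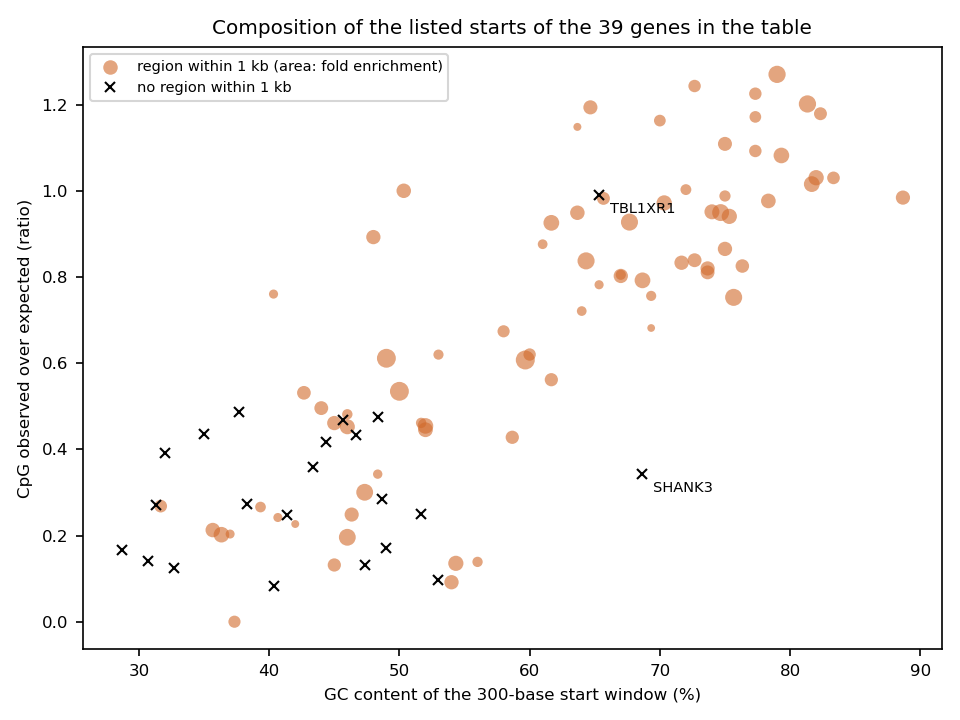
Each mark is 1 of the 100 listed starts of the genes, placed by the GC content of its 300-base window in percent (horizontal axis) and the ratio of observed to expected CpG (vertical axis), with circles for starts with a region within 1 kb, their area proportional to fold enrichment, and crosses for starts without one. All but 2 of the crosses lie below 55% GC, and the 2 are named.

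Chromatin regulators and synaptic and adhesion genes, set side by side, differed in length before anything else, with medians of 109 kb and 693 kb. An outer end was open in 14 of 16 and 8 of 8, a difference of -12.5 percentage points that turned to 12.5 with a window of 500 bp and to 16.7 at listed starts. At those ends the median fold enrichment was 8.64 and 6.93, and at the strongest listed start 8.64 and 8.04. The median tag number at the ends was 958 and 436. Over the lengths of each, the median percentile for tags was 48.8 and 22.3, and for fold enrichment 31.9 and 35.8. At outer ends the synaptic genes were thus lower by tags for their length but not by fold enrichment. Those ends are not all starts. The end counted was the far end in SHANK3 (114 tags) and lay away from the listed start in CHD8 (2217 tags). ANK2 and ANK3 had inner starts with more tags than the ends counted. Tags at listed starts were not compared between the roles. Inside the gene the order turned with the measure: medians were 1.74 and 2.84 regions per 100 kb and percentiles 53.5 and 77.6, but pooled over all bases of each role the densities were 2.44 and 2.17. In genes of 50 to 100 kb, where both roles occur, the 6 chromatin regulators had 1.64 regions inside per 100 kb and SHANK1 and SHANK3 together 5.98. Distal regions had medians of 2 and 1.5. With 16 and 8 genes from a single pooled list, these are counts of the genes named and not estimates for either class.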

How the data were processed

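ATAC-seq regions of KOLF2.1J-hNGN2 neurons at day 14 came from a list the authors deposited, pooled over 3 samples as the optimal set by irreproducible discovery rate, per the labels. The build is hg38, per the submitters' processing notes. The aligner, peak caller and filters are not given in the sources used here. In the deposited list fold enrichment is a ratio to local background, significance is a −log10 p-value, and each entry has a score from 540 to 1000.

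Summit entries that shared their bounds became 1 region, placed by the strongest summit. Tags n and background were recovered from fold enrichment and −log10 p with a pseudocount of 1, and missed the deposited −log10 p by at most 0.00079. The tag recovery and the counts per gene were tested on simulated data with known answers. Depth per replicate is unknown, tags carry no molecular identifiers, and intervals cover counting error only.

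A gene's bounds and starts came from RefSeq GRCh38.p14. A region was at an end when its summit was within 1 kb, inside when further in, and distal when outside, within 50 kb and not within 1 kb of any other gene's end. Percentiles are mid-ranks among coding genes within 25% of the length, members left out. All 42 genes are accounted for. Given in full are those with no open outer end, the 3 strongest and 3 weakest ends, the 5 with most inside regions per 100 kb and most distal regions, those beyond percentile 95 or 5, and the strongest end of each role. Members and lists were chosen with earlier results of these data known. Some of the other autism genes are not reported here. No test was run, since genes are not replicates. Alternatives changed the score or fold threshold, windows, the unit counted, the ends, the roles and the length tolerance. Computation used Python 3.11.15, numpy 2.4.6, pandas 2.3.3, scipy 1.17.1 and matplotlib 3.10.9.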

Additional observations from a re-analysis of the deposited data

How the results depend on the processing

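No paired analysis was possible because only 1 group was measured and its samples were pooled. Pooled values also allow no replicate to be left out. Of 143 values under other settings, over 22 results, 101 stayed within 1.5 times, 38 moved further and 4 changed sign, and the cause was not tested. The 4 were all the difference between chromatin regulators and synaptic and adhesion genes in open ends, which was -12.5 points and became 6.25 with regions above the median fold enrichment, 16.7 at listed starts, and 12.5 both with scores of at least 830 and with a 500 bp window. It was -6.25 with a 2 kb window or any overlap. Open synaptic ends fell from 8 to 5 with regions above the median fold enrichment, at listed starts (of 6) and with the 500 bp window, and the 10 transcription factors and cofactors became 5, with 3 open, when the others joined the chromatin list.

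Medians of regions inside per 100 kb were, with regions above the median fold enrichment, 0.514 (chromatin), 1.29 (transcription), 1.35 (synaptic) and 0.274 (signalling), and with every summit counted 3.99, 7.04, 6.13 and 2.83. The signalling median was 0.706 at scores of at least 830, and chromatin minus synaptic was -2.15 with every summit. Distal medians with every summit were 4 (chromatin), 4.5 (transcription), 3.5 (synaptic) and 3 (signalling), and within 100 kb they were 5, 4, 4 and 3. Within 20 kb the chromatin and synaptic medians were 0. Above the median fold enrichment they were 1 (chromatin), 0.5 (transcription) and 0 (signalling). With ends of other genes counted, chromatin had 4 and signalling 2.5. Chromatin minus synaptic for distal regions, 0.5, became 0 above the median fold enrichment, within 20 kb and with the 500 bp window, 1 with any overlap, within 100 kb and with the 2 kb window, and 2 with ends of other genes. The median fold enrichment at ends, the count of 37 open ends and the percentiles stayed within the limit under every setting run. For a count this high out of 42 the limit is wide, so staying within it says little. The count was 30 of 42 with the 500 bp window and with regions above the median fold enrichment, and 40 with the 2 kb window. The share of all coding genes with an open end was not computed at these settings. Whether the members' higher share holds there was not tested. Regions weaker than the deposited threshold are outside the list, so a gene without a region was not detectable as open at this depth.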

Other observations

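A further 44 genes known in autism that are not on the list were read in the same way. An outer end was open in 37 of 44, beside 66.7% of all coding genes and an average of 77.2% among coding genes of similar length. Among those without one were CHD3, DEAF1, NSD1 and TBR1 of 18 chromatin and transcription genes, and the receptor subunit gene GRIN2B and the adhesion gene NLGN3 of 16 genes of the synapse, channels and adhesion. CHD3, DEAF1, NSD1 and GRIN2B were open at a listed start inside the gene, and TBR1, a factor of cortical projection neurons, and NLGN3 were not. Among the strongest ends were those of the growth regulator TSC2, with a fold enrichment of 16.9, and the histone methyltransferase gene KMT2D, with 14.5. KMT2D was open at both ends and had 10.4 at its listed start, so its stronger end region was not at that start. The median fold enrichment at ends was 8.86 for chromatin and transcription genes and 7.52 for synaptic, channel and adhesion genes.

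IL1RAPL1, a very long synaptic adhesion gene on the X chromosome, had 5 regions inside, fewer than any coding gene of similar length (percentile 0). Chromosome and copy number were not matched in that ranking. KMT2E, a histone methyltransferase family gene named after its values were seen, had the weakest open end of the 44, with a fold enrichment of 1.83 and 436 tags.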
